A study of Mus musculus with 16 samples.

Results

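Pdk4 and 6 other genes known as targets of fasting and of the PPAR nuclear receptors were described in the hearts of mice kept on 4 diets. The 7 genes, Pdk4, Pdk2, Angptl4, Ucp2, Ucp3, Acot1 and Acot2, were chosen by symbol from the 17737 genes of the deposited table. The choice was made with earlier results of these data known. All 7 were found and all 7 passed the count filter, as did 13381 genes in all. RNA was sequenced from the lower part of the ventricles of 16 male C57BL/6 mice, 4 on each diet, each library being a single animal. Mice were 6 weeks old when they were assigned at random to a diet, which they ate for 6 months with free access to food.

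The groups are mNIA, a version of NIA with sucrose and fat set to match UW, then UW and NIA themselves, both of which are made for primates, and a standard rodent chow. Strain, sex, starting age and time on diet were shared by all 4 groups, and no group carried a transgene or a drug. None of the diets is a fast, and whether food was withdrawn before death was not given in the sources used here. Groups follow the sample titles. The short codes of the libraries do not spell the same diet names, so the identity of each of the 3 primate-formula groups was not settled. The contrast of the mean of the 3 formula groups with chow does not depend on that order, and it is given first for each gene.

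The heart burns mostly fatty acids and switches to more glucose after a meal. During a fast, fatty acids reach the nucleus and activate PPAR alpha, which with its partner RXR switches on genes that carry, store and burn fat, while FoxO factors and glucocorticoids act on several of the same genes. Pdk4 is the best known of these in muscle and heart: its product, pyruvate dehydrogenase kinase 4, phosphorylates the pyruvate dehydrogenase complex and so holds back the entry of glucose carbon into the citric acid cycle.

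The part of the Acot1 and Acot2 messages that short reads cannot tell apart is shown first, because it limits what can be said of each gene alone. Acot1 and Acot2 lie 15626 bases apart on the plus strand of chromosome 12 and encode acyl-CoA thioesterases, which split fatty acyl-CoA into free fatty acid and coenzyme A. Their longest identical stretch is 273 bases within the coding sequence of exon 3, chr12:84017006-84017278 in Acot1 and chr12:83992728-83993000 in Acot2 (GENCODE vM21, GRCm38, plus strand). Capitals are not used in it because every base is shared.
Acot1 and Acot2: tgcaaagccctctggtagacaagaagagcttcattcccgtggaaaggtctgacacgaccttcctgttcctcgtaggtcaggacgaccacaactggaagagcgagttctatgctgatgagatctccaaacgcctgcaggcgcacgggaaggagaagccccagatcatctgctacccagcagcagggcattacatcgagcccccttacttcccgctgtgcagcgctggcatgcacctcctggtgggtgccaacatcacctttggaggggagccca

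Reads were 75 bases long. Of the 75-base words in Acot1 transcripts 26.4% occur also in another gene, most of them in Acot2 and others in Acot3, Acot4, Acot5 or Acot6, and for Acot2 the share is 21.2%. For Pdk4 it is 0.6%, and for Pdk2, Angptl4, Ucp2 and Ucp3 no word was shared. How the authors' counting divided such reads was not given in the sources used here, so Acot1 and Acot2 are also given as a sum.

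The stretches just before the start sites of Pdk4, Pdk2, Acot1, Acot2 and Ucp3 are shown because the levels of these 5 genes varied together across the hearts. They end before the first annotated exon and are credited to RefSeq (GRCm38.p6). Of the 7 genes 6 had such a window, and Angptl4 is named only. Capitals mark AGGTCA, the hexamer that PPAR and RXR read as a pair.
Pdk4, chr6:5496310-5496528, minus strand: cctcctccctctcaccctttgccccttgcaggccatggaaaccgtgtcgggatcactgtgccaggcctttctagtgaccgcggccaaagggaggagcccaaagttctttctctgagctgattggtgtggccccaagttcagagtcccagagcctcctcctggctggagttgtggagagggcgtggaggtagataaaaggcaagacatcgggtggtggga
Pdk2, chr11:95041372-95041621, minus strand: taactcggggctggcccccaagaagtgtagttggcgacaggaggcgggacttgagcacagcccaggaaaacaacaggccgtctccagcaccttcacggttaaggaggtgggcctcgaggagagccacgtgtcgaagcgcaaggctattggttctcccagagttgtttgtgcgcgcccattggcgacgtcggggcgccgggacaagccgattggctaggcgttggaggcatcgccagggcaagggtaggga
Acot1, chr12:84009252-84009489, plus strand: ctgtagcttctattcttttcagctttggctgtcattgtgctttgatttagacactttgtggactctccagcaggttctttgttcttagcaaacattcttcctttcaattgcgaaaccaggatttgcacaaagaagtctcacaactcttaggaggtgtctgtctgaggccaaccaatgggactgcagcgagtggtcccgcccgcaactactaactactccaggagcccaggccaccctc
Acot2, chr12:83987611-83987860, plus strand: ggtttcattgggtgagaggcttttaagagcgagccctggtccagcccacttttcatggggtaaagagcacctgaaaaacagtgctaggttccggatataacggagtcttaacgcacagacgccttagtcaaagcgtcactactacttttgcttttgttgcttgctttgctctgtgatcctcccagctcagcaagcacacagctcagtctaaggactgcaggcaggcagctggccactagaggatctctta
Ucp3, chr7:100472741-100472989, plus strand: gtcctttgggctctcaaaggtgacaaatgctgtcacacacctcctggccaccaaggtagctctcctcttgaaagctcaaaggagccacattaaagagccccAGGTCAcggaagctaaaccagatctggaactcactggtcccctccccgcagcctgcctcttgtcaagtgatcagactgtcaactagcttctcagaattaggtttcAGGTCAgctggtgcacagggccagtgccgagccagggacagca

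AGGTCA was searched on both strands in windows of 250 bases before the RefSeq start. It stood in the Ucp3 window at 149 and 44 bases before the start, and in no other window of the 6 genes. It is held by 14.02% of the 32851 RefSeq windows. The FoxO motif GTAAACA, also searched on both strands, was in none of the 6 and in 3.17% of all windows. CCAAT, which 33.85% of windows hold, was found before Pdk4, Pdk2, Acot1 and Acot2. These are letters in short windows, and elements that lie further away were not searched.

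Depth and tissue were looked at once for all genes. Total counts ran from 2278250 in NIA replicate 4 to 63005490 in NIA replicate 2, and the other 14 libraries held 3143385 to 6583532. Sample quality weights, estimated by limma from how far a library lies from its diet's mean, were under 0.5 in mNIA replicate 2 (0.36), NIA replicates 1 (0.3) and 4 (0.16) and chow replicate 3 (0.23). All 8 cardiomyocyte markers were present in every library and summed to 53989 to 128774 CPM (counts scaled to a common library total). The adipocyte markers, of which 5 of 8 are in the table, summed to 0.624 to 2.34 CPM, with Adipoq at 0 in all mNIA hearts. Those of skeletal muscle (6 of 8) summed to 1.07 to 7.11 CPM and those of liver (5 of 6) to 2.15 to 8.39 CPM. The brown adipocyte markers (3 of 4) summed to 22.5 to 40.7 CPM, nearly all of it Cidea, and had a Spearman rho of 0.63 with Acot1 and 0.61 with Pdk2 and with Acot2 over the 16 libraries. The part of these tissues in the levels of the 7 genes was not tested. In whole tissue, fewer cells of a type and less RNA per cell cannot be told apart.

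Levels of the 7 genes are given as CPM after TMM scaling, and for comparisons between genes as CPM per kilobase of transcript. Only exon bases within the deposited gene positions were counted as length. That left 1577 bases for Ucp2, 1904 for Angptl4 and 1559 for Acot1, whose annotated transcripts run further. The Ucp2 transcript ends 2390 bases past the deposited stop, so its place in the order below depends on this choice. Per kilobase, the median over 16 hearts was 193 for Pdk2, 103 for Pdk4, 43.2 for Acot2, 37.4 for Ucp2, 28.4 for Ucp3, 16.5 for Acot1 and 5.93 for Angptl4. Neighbours in this order were not all apart: Pdk2 exceeded Pdk4 in 12 of 16 hearts, Acot2 exceeded Ucp2 in 12 and Ucp2 exceeded Ucp3 in 11. Pdk4 exceeded Acot2 in 15 hearts, Ucp3 exceeded Acot1 in 16 and Acot1 exceeded Angptl4 in 15. By mean CPM, Pdk4 ranked above 98.3% of tested genes, Pdk2 above 97.4% and Angptl4 above 36.4%.

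**Figure D1:**
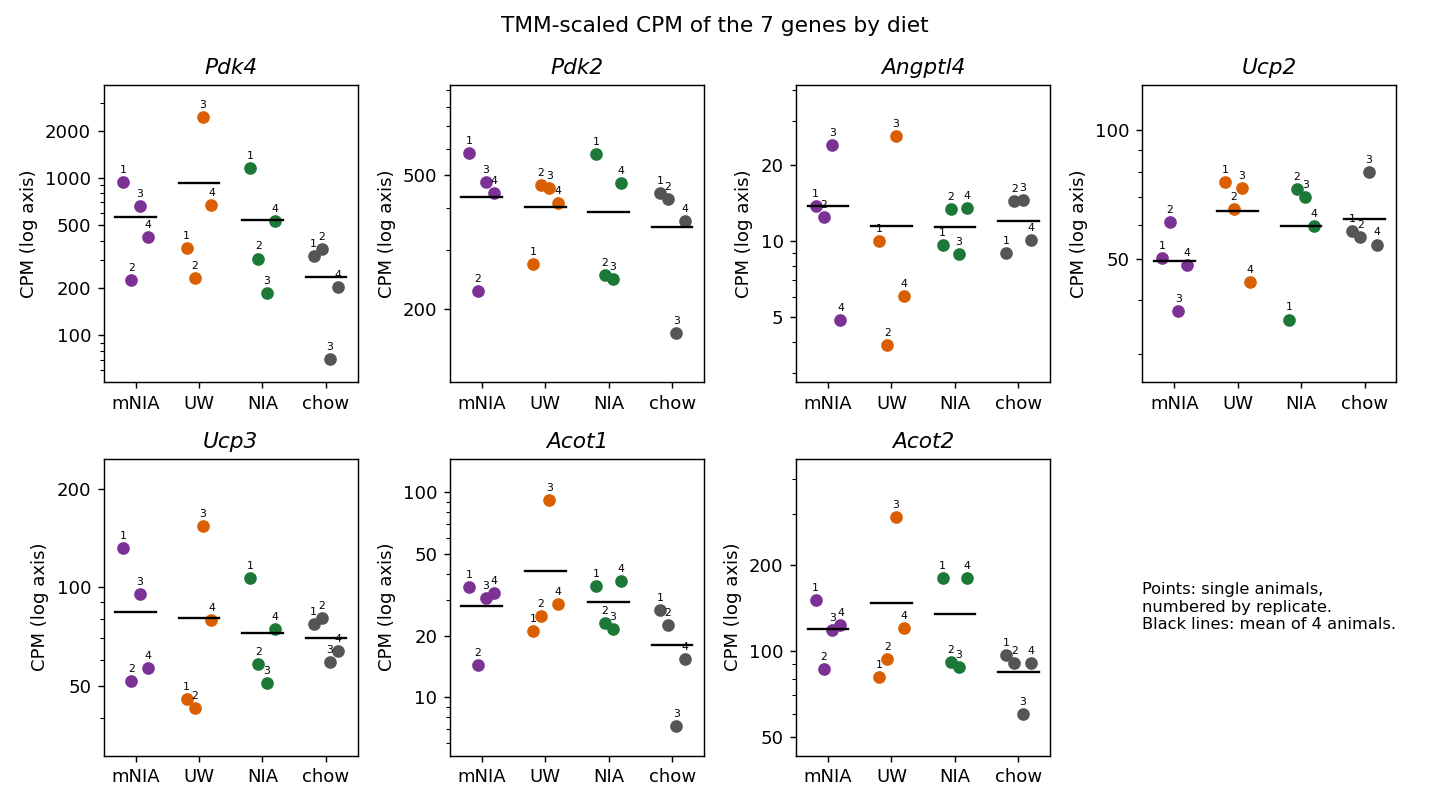
Level of each of the 7 genes in CPM (log axis) in single hearts on mNIA, UW, NIA and chow, with the mean of 4 animals as a black line and the replicate number above each point. UW replicate 3 is the highest heart for Pdk4 (2441 CPM), and chow replicate 3 is the lowest (70.9 CPM); in every panel the hearts on the formulas overlap those on chow.

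No member passed an adjusted p of 0.05 in any comparison of diets by edgeR's quasi-likelihood test with Benjamini-Hochberg adjustment over all tested genes. For the mean of the 3 formulas against chow the count was 0 of 7 members, beside 0% of all tested genes. It was also 0 of 7 for UW against chow and NIA against chow (0% of all genes each) and for mNIA against chow (0.00747%, which is 1 gene, Phtf1os). Among the formulas, 0 of 7 members passed for UW against NIA, mNIA against NIA and mNIA against UW, as did 0% of all genes in each. The joint test for any diet difference likewise gave 0 of 7 and 0%. At an unadjusted p under 0.05 edgeR gave 3 members, Pdk4, Acot1 and Acot2, for the formulas against chow and the same 3 for UW against chow, where the shares of all genes at that level were 2.19% and 2.35%. It gave 0 members for NIA over chow (8.7% of all genes), mNIA over chow (1.38%), UW over NIA (13.9%), mNIA over NIA (8.91%), mNIA over UW (0.986%) and the joint test (6.88%). Limma-voom called 0 of 7 in each comparison at an adjusted p of 0.05. It called 0.0299% of all genes for the formulas over chow, 0.232% for NIA over chow, 0.0149% for UW over chow, 0.00747% each for mNIA over chow and mNIA over UW, 7.13% for UW over NIA and 15% each for mNIA over NIA and the joint test. DESeq2 also called 0 of 7 members throughout, and 0 to 375 genes. The values below are therefore levels and their spread, and no difference between diets is claimed for any gene.

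Pdk4 had the highest mean in UW hearts and the lowest in chow hearts. It was at 947, 224, 663 and 421 CPM in the 4 mNIA hearts, at 357, 231, 2441 and 675 CPM in UW hearts and at 1156, 308, 185 and 529.9 CPM in NIA hearts, against 322, 351, 70.9 and 202 CPM in chow hearts. Of the 12 formula hearts 8 lay above every chow heart and none lay below every chow heart, so the groups overlapped. Means were 564 ± 312 CPM in mNIA, 926 ± 1027 in UW and 545 ± 432 in NIA hearts, against 236 ± 128 in chow hearts (SD, n = 4 each). The gene, at chromosome 6, 5483351 to 5496279 on the minus strand (mm10), has 11 exons in the transcript used for its length.

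The log2 fold change of Pdk4, formulas over chow, was 1.48 ± 0.62 (SE; 95% confidence interval 0.18 to 2.77; edgeR adjusted p = 0.938). Against chow it was 1.25 ± 0.70 for mNIA (edgeR adjusted p = 0.983), 1.97 ± 0.71 for UW (0.977) and 1.2 ± 0.7 for NIA (0.634). These 3 contrasts share the same chow hearts. Between the formulas it was -0.72 ± 0.69 for mNIA over UW, 0.05 ± 0.69 for mNIA over NIA and 0.77 ± 0.69 for UW over NIA, each SE being close to the difference or larger. Single hearts moved these values. Without UW replicate 3 the formula contrast was 1.10, UW over chow was 0.83, and mNIA over UW turned to 0.42. Without NIA replicate 1, NIA over chow was 0.58, and by limma-voom, which gives hearts of low quality weight less say, it was 0.16 and the formula contrast 0.85. Without chow replicate 3 and UW replicate 3 together, a pair chosen after their values were seen, the formula contrast was 0.79.

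Chow replicate 3 also stood apart from the other chow hearts in markers of cell types. Its cardiomyocyte markers summed to 58782 CPM, against 81386 to 87470 CPM in the other chow hearts, its endothelial markers to 1927 CPM against 1203 to 1352 CPM, and its erythrocyte markers to 6141 CPM against 2394 to 4186 CPM. Such values were not confined to that heart. UW replicate 1 had cardiomyocyte and endothelial sums of 56220 and 1935 CPM. NIA replicate 2 had cardiomyocyte and erythrocyte sums of 53989 and 7269.9 CPM. All 8 cardiomyocyte markers had a log2 fold change above 0 for the formulas over chow, with a median of 0.11. The median was 0.22 for mNIA over chow and 0.51 for NIA over chow. For UW over chow it was -0.02, with 5 of 8 below 0. All 5 erythrocyte markers were below 0 for the formulas over chow, with a median log2 fold change of -0.48. Their median was -0.99 for UW over chow and -0.58 for mNIA over chow. For NIA over chow it was 0.14, with 3 of 5 above 0. In each of these comparisons 0 of 8 cardiomyocyte and 0 of 5 erythrocyte markers passed. In UW replicate 3 the cardiomyocyte sum of 82196 CPM lay within the other UW hearts, at 56220 to 85241 CPM. Their part in the Pdk4 values was not tested.

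Pdk2, the kinase of the same complex that is present in most tissues and answers to energy charge, was nearly level across the diets. It was at 581, 226, 479 and 444 CPM in mNIA, 273, 468, 459 and 415 CPM in UW and 578, 253, 245 and 476 CPM in NIA hearts, against 443, 424, 169.8 and 366 CPM in chow hearts. Low in Pdk2 within their diet were mNIA replicate 2, UW replicate 1, NIA replicates 2 and 3 and chow replicate 3. Means were 432 ± 149 CPM in mNIA, 403 ± 90.2 in UW and 388 ± 166 in NIA hearts, against 351 ± 125 CPM in chow hearts (SD, n = 4 each). The log2 fold change, formulas over chow, was 0.21 ± 0.30 (interval -0.41 to 0.84; edgeR adjusted p = 0.939), and it was -0.02 without chow replicate 3. Of its variance in log2 CPM 94.3% lay within diets, against 73.5% for Pdk4. Means of 4 hearts differ by chance alone, so the remainder is not a measure of a diet effect. Pdk2 lies on chromosome 11, 95026258 to 95041372, minus strand.

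The calls of Pdk2, like that of Ucp2 given further on, depended on which libraries were kept. Without the 4 libraries of low quality weight, which leaves 2 NIA hearts, its log2 fold change was 1.00 for mNIA over NIA (edgeR adjusted p = 0.0041) and 0.71 for UW over NIA (0.0313), against 0.16 and 0.06 with all 16. At that setting 3184 and 1627 of the 17737 genes in the table were called in these 2 comparisons, so such calls were common. Both NIA hearts that remain, replicates 2 and 3, are those in which Pdk2 was low. Removing libraries far from their diet's mean narrows the spread within diets by construction.

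Angptl4 encodes a secreted protein that inhibits lipoprotein lipase and so limits the uptake of fatty acids from lipoproteins. It was at 13.8, 12.4, 24.2 and 4.88 CPM in mNIA, 10.05, 3.87, 26.1 and 6.09 CPM in UW and 9.65, 13.4, 8.87 and 13.5 CPM in NIA hearts, against 8.98, 14.4, 14.5 and 10.1 CPM in chow hearts. The hearts on mNIA and UW were spread widely on both sides of chow. Means were 13.8 ± 7.95 CPM in mNIA, 11.52 ± 10.04 in UW and 11.4 ± 2.45 in NIA hearts, against 12.0 ± 2.89 CPM in chow hearts (SD, n = 4 each). It was the member with the fewest reads, from 19 to 989 counts per library. Formulas over chow, its log2 fold change was 0.02 ± 0.39 (interval -0.80 to 0.83; edgeR adjusted p = 0.996), and it was -0.24 without UW replicate 3. The gene lies on chromosome 17, 33774900 to 33781576, minus strand.

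Ucp2 and Ucp3 encode carriers of the inner mitochondrial membrane that are related to the uncoupling protein of brown fat. They are neighbours on the plus strand of chromosome 7, Ucp3 at 100472991 to 100486433 and Ucp2 at 100493358 to 100499630, with 6925 bases between them. Ucp3, the form of skeletal muscle and heart, was at 132, 51.9, 95.4 and 56.9 CPM in mNIA, 45.7, 43.0, 154 and 79.4 CPM in UW and 107, 58.3, 51.2 and 74.7 CPM in NIA hearts, against 77.3, 80.8, 59.1 and 64.2 CPM in chow hearts. Formula hearts lay on both sides of chow, 4 above and 6 below every chow heart. Means were 83.9 ± 37.2 CPM in mNIA, 80.6 ± 51.9 in UW and 72.8 ± 24.8 in NIA hearts, against 70.3 ± 10.3 CPM in chow hearts (SD, n = 4 each). Its log2 fold change, formulas over chow, was 0.16 ± 0.31 (interval -0.48 to 0.81; edgeR adjusted p = 0.948).

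Ucp2, which is abundant in macrophages and other immune cells as well, was at 50.2, 61.2, 37.8 and 48.4 CPM in mNIA, 75.6, 65.4, 73.4 and 44.2 CPM in UW and 36.1, 72.8, 69.9 and 59.7 CPM in NIA hearts, against 58.2, 56.4, 79.9 and 54.1 CPM in chow hearts. Means were 49.4 ± 9.58 CPM in mNIA, 64.7 ± 14.3 in UW and 59.6 ± 16.7 in NIA hearts, against 62.1 ± 12.0 CPM in chow hearts (SD, n = 4 each). It varied least of the 7, with a highest value 2.21 times the lowest. Formulas over chow, its log2 fold change was -0.11 ± 0.19 (interval -0.51 to 0.30; edgeR adjusted p = 0.948). For mNIA over NIA it was -0.29 ± 0.24 (edgeR adjusted p = 0.764), and -0.66 (0.0226) after removal of the 4 low-weight libraries. With those libraries removed, 3184 of the 17737 genes in the table were called for mNIA over NIA. Macrophage markers, all 8 of which are in the table, summed to 183 to 279.6 CPM in mNIA, 219 to 531 in UW and 172 to 406 in NIA hearts, against 255 to 329 CPM in chow hearts. Across the 16 hearts Ucp2 and this sum had a Spearman rho of 0.66. Their part in the Ucp2 values was not tested.

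Acot1, the cytosolic thioesterase of the pair, was at 34.7, 14.4, 30.4 and 32.2 CPM in mNIA, 21.0, 24.9, 91.3 and 28.5 CPM in UW and 34.8, 23.1, 21.6 and 37.0 CPM in NIA hearts, against 26.7, 22.6, 7.26 and 15.4 CPM in chow hearts. Of the 12 formula hearts 7 lay above every chow heart and none below every chow heart. Means were 27.9 ± 9.20 CPM in mNIA, 41.4 ± 33.4 in UW and 29.1 ± 7.91 in NIA hearts, against 18.0 ± 8.56 CPM in chow hearts (SD, n = 4 each). Its log2 fold change, formulas over chow, was 0.83 ± 0.38 (interval 0.03 to 1.62; edgeR adjusted p = 0.938). It was 0.57 without chow replicate 3 and 0.32 without chow replicate 3 and UW replicate 3 together.

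Acot2, the mitochondrial thioesterase, was at 150.4, 86.3, 118 and 124 CPM in mNIA, 80.8, 93.5, 293 and 120.2 CPM in UW and 179.5, 91.7, 87.5 and 179.9 CPM in NIA hearts, against 96.4, 91.0, 60.3 and 90.9 CPM in chow hearts. Here too 7 of 12 formula hearts lay above every chow heart. Means were 119.5 ± 26.3 CPM in mNIA, 147 ± 98.9 in UW and 135 ± 52.0 in NIA hearts, against 84.6 ± 16.5 CPM in chow hearts (SD, n = 4 each). The log2 fold change, formulas over chow, was 0.65 ± 0.31 (interval 0.01 to 1.29; edgeR adjusted p = 0.938), 0.46 without UW replicate 3 and 0.32 without that heart and chow replicate 3. With the counts of Acot1 and Acot2 summed the value was 0.69. Acot1 made up 10.8% of that sum in chow replicate 3 and 23.7% in UW replicate 3, the lowest and highest shares of the 16 hearts.

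For UW over chow the log2 fold change was 1.19 ± 0.44 for Acot1 and 0.79 ± 0.36 for Acot2, edgeR adjusted p = 0.977 for each. Without UW replicate 3 these were 0.46 and 0.21. For mNIA over chow they were 0.63 ± 0.44 and 0.50 ± 0.36 (0.983 for each), and for NIA over chow 0.65 ± 0.45 (0.71) and 0.66 ± 0.36 (0.619). Without chow replicate 3, Acot1 was at 0.38 for mNIA over chow and 0.39 for NIA over chow. Acot1 lies at chromosome 12, 84009502 to 84017670, and Acot2 at 83987861 to 83993876.

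**Figure D2:**
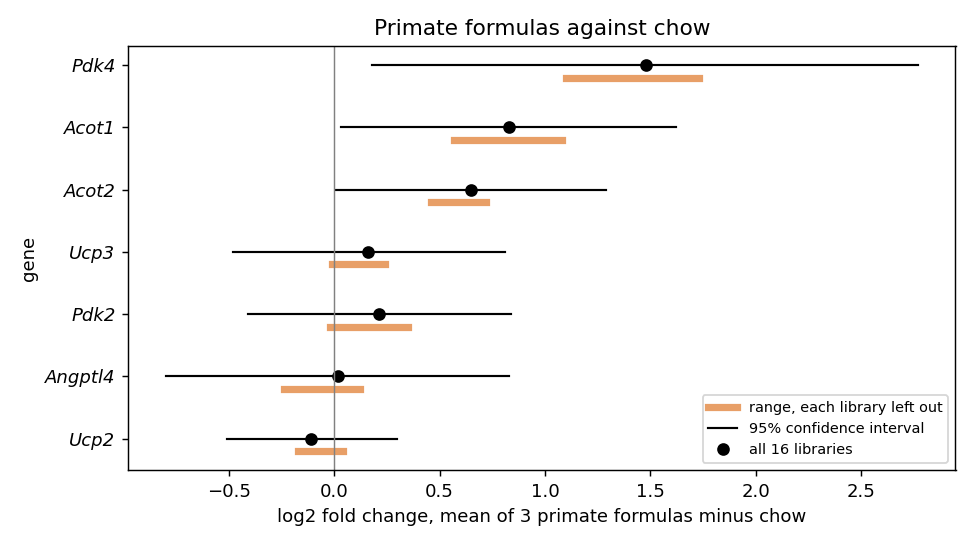
Log2 fold change of each gene, mean of the 3 primate formulas over chow, with its 95% confidence interval (black line) and the range of the value when each of the 16 libraries is left out in turn (orange bar). The intervals of Pdk4 (0.18 to 2.77), Acot1 and Acot2 lie above 0 before any adjustment for the number of genes tested, and the orange bars of Pdk2, Angptl4, Ucp2 and Ucp3 reach both sides of 0.

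Over the 7 genes, the edgeR log2 fold change, formulas over chow, was above 0 for 6 and below 0 for 1, Ucp2. Angptl4, among the 6, was at 0.02. Their median log2 fold change was 0.21, and that of all tested genes was 0. The median of the 7 was 0.30 for mNIA over chow, 0.20 for UW over chow and 0.14 for NIA over chow, beside 0.01, -0.01 and -0.01 for all genes. In no member did the formula hearts and the chow hearts stand fully apart, which 0.0374% of tested genes did with the formulas higher and 0.0523% with the formulas lower.

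Within a diet, single hearts differed more in Pdk4 than in nearly any other gene. The SD of log2 CPM within diets was 1.16 for Pdk4, larger than for 98.2% of tested genes, where the median was 0.42. It was 0.78 for Angptl4, 0.72 for Acot1, 0.59 for Ucp3, 0.57 for Pdk2, 0.56 for Acot2 and 0.35 for Ucp2. The highest heart held 34.44 times the Pdk4 of the lowest, 12.57 times the Acot1 and 4.87 times the Acot2. UW replicate 3 was the highest of 16 for 5 members (Pdk4, Angptl4, Ucp3, Acot1 and Acot2), and chow replicate 3 was the lowest for 4 (Pdk4, Pdk2, Acot1 and Acot2).

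**Figure D3:**
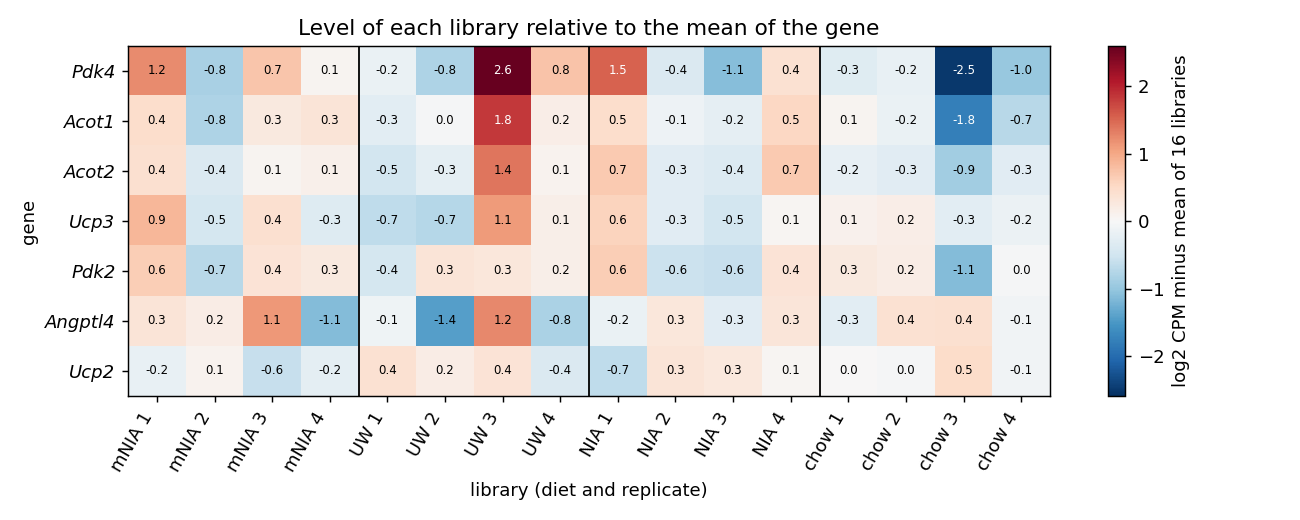
Log2 CPM of each of the 7 genes (rows) in each of the 16 libraries (columns, by diet and replicate) minus that gene's mean over the libraries, red above and blue below. UW replicate 3 is red in all 7 rows, with Pdk4 at 2.6, and chow replicate 3 is blue in the Pdk4 (-2.5), Acot1, Acot2, Ucp3 and Pdk2 rows and red in the Angptl4 and Ucp2 rows.

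Across the 16 hearts, Acot1, Acot2, Pdk2 and Ucp3 varied with Pdk4, while Angptl4 did so little and Ucp2 ran the other way. With Pdk4, Spearman's rho was 0.87 for Acot1, 0.84 for Acot2, 0.76 for Pdk2, 0.72 for Ucp3, 0.20 for Angptl4 and -0.49 for Ucp2. Counted from the highest rho among the 13380 other tested genes, Acot1 was at rank 87, Acot2 at 192, Pdk2 at 673 and Ucp3 at 999. Many genes outside the 7 thus followed Pdk4 at least as closely. These correlations describe 16 libraries that share scaling and a diet in groups of 4, and no p is given. With each diet's mean removed, the values were 0.91 for Acot1, 0.85 for Acot2, 0.76 for Pdk2, 0.89 for Ucp3, 0.31 for Angptl4 and -0.60 for Ucp2. Without UW replicate 3 and chow replicate 3 they were 0.81, 0.77, 0.75, 0.72, 0.21 and -0.67 in the same order of genes. Between Acot1 and Acot2 rho was 0.98, and these 2 genes share sequence.

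**Figure D4:**
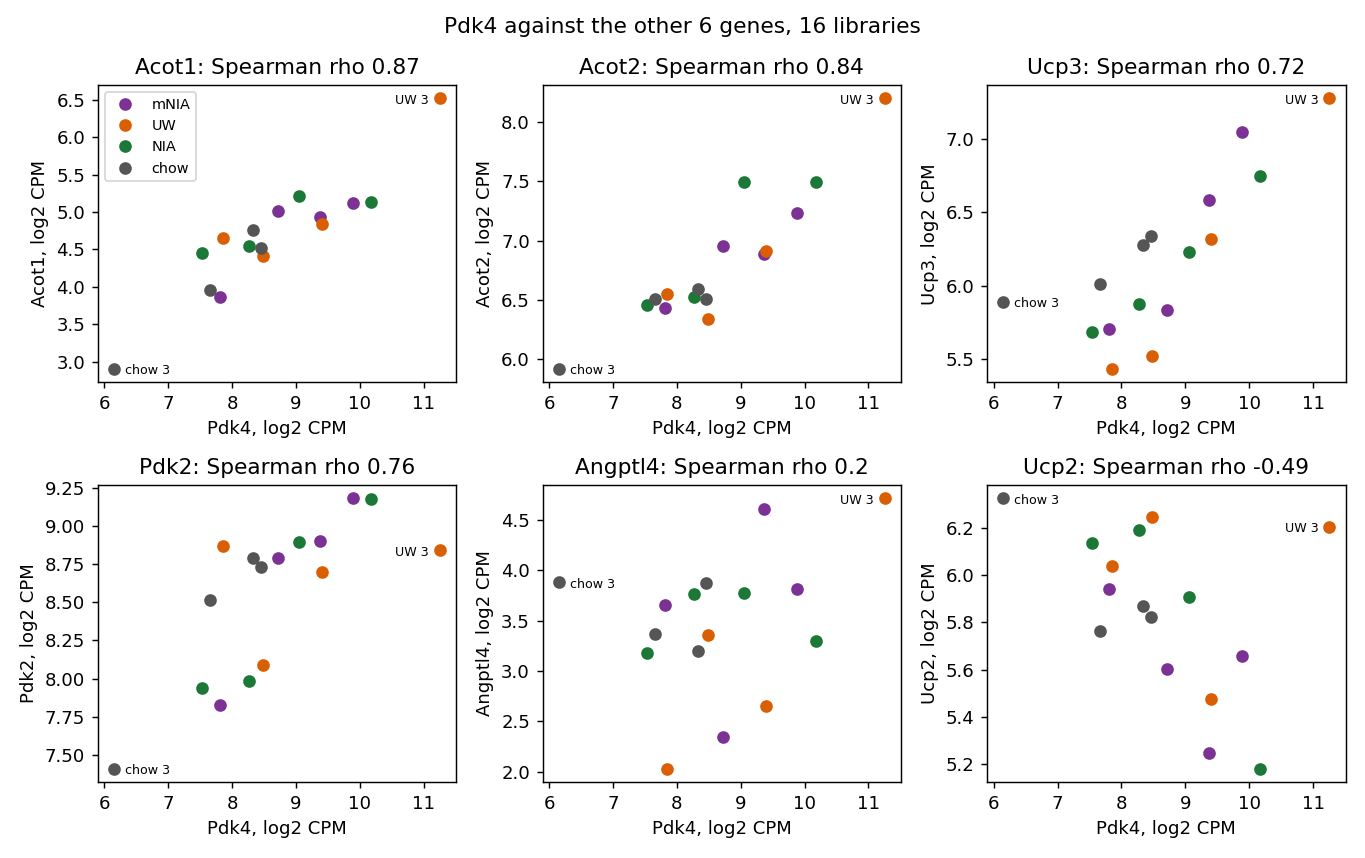
Log2 CPM of Acot1, Acot2, Ucp3, Pdk2, Angptl4 and Ucp2 (vertical axes) against log2 CPM of Pdk4 (horizontal axis) in 16 hearts, coloured by diet. Acot1 (rho 0.87) and Acot2 (0.84) climb with Pdk4, Ucp2 (-0.49) runs against it, and UW replicate 3 and chow replicate 3 stand at the ends of the Pdk4 axis.

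Of the 13380 other tested genes, the 6 with the highest rho to Pdk4 after clone names were left out were Sp3 (0.95) and Zhx1 (0.94), which encode transcription factors, Cd36 (0.93), Rad21 (0.93), Pspc1 (0.93) and Papolg (0.92). Cd36 encodes the main fatty acid transporter of the heart and is a PPAR target, Rad21 a cohesin subunit, Pspc1 a paraspeckle protein and Papolg a poly(A) polymerase. Cd36 ran from 1760 to 2490 CPM in mNIA, 1976 to 3068 in UW and 1565 to 3451 in NIA hearts, against 1158 to 2070 CPM in chow hearts. The lowest rho belonged to Grina (-0.92), Cib1 (-0.93) and H2-T9 (-0.93). With diet means removed, rho was 0.88 for Sp3, 0.90 for Cd36 and 0.91 for Acot1.

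The members also varied with markers of the cell types of the heart. The summed cardiomyocyte markers had a Spearman rho of 0.81 with Pdk2, 0.72 with Acot1, 0.71 with Acot2, 0.50 with Pdk4, 0.41 with Ucp3, -0.11 with Angptl4 and -0.62 with Ucp2 over the 16 hearts. The summed endothelial markers, which ran from 527 to 1935 CPM, gave -0.88 with Pdk2, -0.83 with Acot2, -0.82 with Acot1, -0.57 with Pdk4 and 0.57 with Ucp2. For the erythrocyte markers, at 1166 to 7269.9 CPM, rho with Pdk4 was -0.74. The points share library scaling, and the part of these cells in the levels of the 7 genes was not tested.

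None of the 8 lists of related genes held a gene that passed in any comparison, so the counts that follow are of directions and not of calls. In them, a higher or lower mean stands for an edgeR log2 fold change above or below 0. Of 23 tested PPAR targets other than the members, 21 had a higher mean on the formulas than on chow (median log2 fold change 0.22, 0 passed). Cd36 was at 0.44 ± 0.25 (SE), Fabp3, the heart fatty acid binding protein, at 0.32 ± 0.28, Plin2, a lipid droplet coat, at 0.00 ± 0.16 and Cpt1b, which admits fatty acids to the mitochondrion, at -0.05 ± 0.19. In chow replicate 3 the median level of this list was -0.90 log2 units from the mean over hearts. It was 0.04 to 0.15 in the other chow hearts and -0.44 to 0.44 in the formula hearts. How far the count of 21 rests on chow replicate 3 was not tested. Fgf21 and Cyp4a14 were not found by symbol among the deposited genes, and Cyp4a10 did not pass the count filter.

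Of 15 receptors, partners and coactivators 10 had a higher mean on the formulas (median 0.08, 0 passed), with Ppara, the receptor itself, at 0.17 ± 0.29, Rxra, its partner, at -0.02 ± 0.16 and the coactivator Ncoa2 at 0.34 ± 0.29. The coactivator Ppargc1a, a regulator of mitochondrial genes that is named here after its values were seen, was at 0.59 ± 0.33, and its Spearman rho with Pdk4 was 0.81. For NIA over chow 10 of the 15 had a lower mean (median -0.12).

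Around Pdk4 and Pdk2, all 12 other genes of the pyruvate dehydrogenase complex and its regulation had a higher mean on the formulas (median 0.25, 0 passed). The other kinases Pdk1 and Pdk3 were at 0.31 ± 0.33 and 0.20 ± 0.33 and the phosphatase Pdp2, which reverses their action, at 0.03 ± 0.30. The mitochondrial pyruvate carrier subunits Mpc1 and Mpc2 were at 0.61 ± 0.35 and 0.18 ± 0.30. For NIA over chow they were at 1.27 ± 0.42 and 0.84 ± 0.37 (edgeR adjusted p = 0.419 and 0.523). The NIA hearts ran from 319 to 1767 CPM for Mpc1 and from 252 to 1180 CPM for Mpc2. The 2 genes were at 0.39 and -0.05 for mNIA over chow and at 0.18 and -0.27 for UW over chow. The median level of this list in chow replicate 3 was -1.4 log2 units from the mean over hearts, against -0.08 to 0.26 in the other chow hearts. In the formula hearts it was -0.67 to 0.61. How far the count of 12 rests on chow replicate 3 was not tested.

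Among other thioesterases, 4 of 7 tested genes had a higher mean on the formulas (median 0.10, 0 passed). Acot3, a peroxisomal enzyme of the same gene cluster, was at 1.13 ± 0.36 (edgeR adjusted p = 0.938), Acot13 at 0.31 ± 0.28 and Acot8 at -0.38 ± 0.22. Acot3 had few reads, with a mean of 1.91 CPM over the 16 hearts and 0.589 to 1.17 CPM in chow hearts. It shares 75-base words with Acot1, at 5.9% of the Acot1 words. Acot4, Acot5, Acot6 and Acot12 did not pass the count filter.

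Around Angptl4, 6 of 9 genes of lipoprotein lipase and lipolysis had a higher mean on the formulas (median 0.27, 0 passed). Lpl, the lipase that Angptl4 inhibits, was at 0.28 ± 0.27, its endothelial anchor Gpihbp1 at 0.10 ± 0.31, the triglyceride lipase Pnpla2 at 0.34 ± 0.28 and its inhibitor G0s2 at 0.27 ± 0.26. Angptl8 did not pass the count filter. Around Ucp2 and Ucp3, 2 of 5 other inner membrane carriers had a higher mean (median -0.01, 0 passed), with Slc25a4, an ATP and ADP exchanger, at 0.01 ± 0.21, Slc25a14 at 0.15 ± 0.25 and Slc25a30 at -0.01 ± 0.31. Ucp1 was not found by symbol among the deposited genes.

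Of the genes that FoxO factors or fasting induce, 14 of 16 had a higher mean on the formulas (median 0.19, 0 passed). The median was 0.26 for mNIA over chow and 0.34 for UW over chow, but for NIA over chow 10 of 16 had a lower mean (median -0.09). Foxo3, 1 of these factors, was at 0.51 ± 0.44, Bnip3, a mitophagy receptor, at 0.72 ± 0.36, Sesn3 at 0.02 ± 0.32 and Klf15, a regulator of fat and amino acid use, at 0.23 ± 0.28. Foxo3 was at 1.18 for mNIA over chow and 1.14 for UW over chow, but at -0.80 for NIA over chow (edgeR adjusted p = 0.446 in the joint test). In chow replicate 3 the median level of this list was -0.82 log2 units from the mean over hearts. It was -0.09 to 0.15 in the other chow hearts and -0.41 to 0.42 in the formula hearts. How far the count of 14 rests on chow replicate 3 was not tested.

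All 16 glucocorticoid response genes had a higher mean on the formulas (median 0.36, 0 passed). The metallothionein Mt2 was at 0.86 ± 0.40, the cell cycle inhibitor Cdkn1a at 0.59 ± 0.36 and Fkbp5, a chaperone of the receptor, at 0.35 ± 0.29. For UW over chow the median was 0.68 with 16 of 16 higher, and Mt2 was at 1.81 ± 0.47. By heart, the median level of this list was highest in UW replicate 3 (0.95), mNIA replicate 4 (0.79) and UW replicate 2 (0.76). Pdk4 was at 2441, 421 and 231 CPM in those hearts, and no correlation of the list's median with Pdk4 was computed. The cause of the differences between hearts was not tested.

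**Figure D5:**
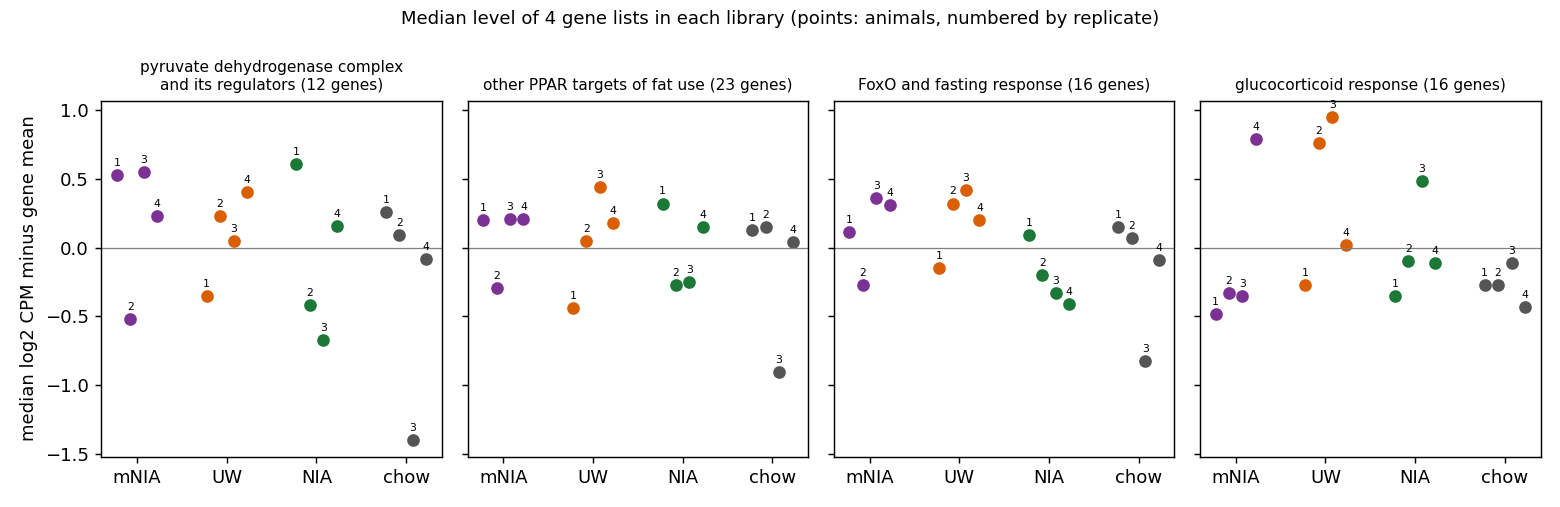
Median over the genes of 4 lists of log2 CPM minus each gene's mean over 16 hearts (vertical axis), by diet and replicate number. Chow replicate 3 is lowest for the pyruvate dehydrogenase (-1.4), PPAR target (-0.90) and FoxO (-0.82) lists, and UW replicate 3 is highest for the PPAR target (0.44), FoxO (0.42) and glucocorticoid (0.95) lists.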

How the data were processed

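Ventricular RNA of 16 mice was read as poly-A selected, stranded, single 75-base reads, per the labels' protocols. The deposited table holds expected counts per gene, made by the authors, with gene positions on mm10. The submitters' processing notes name BWA, DESeq2 and mm10. Versions, the counting tool and the gene models were not given in the sources used here. Counts were rounded to whole numbers and tested with edgeR 4.0.16 under R 4.3.3: TMM scaling, filterByExpr by diet (13381 of 17737 genes, 75.4%), robust quasi-likelihood fit with 1 mean per diet, 2-sided tests, Benjamini-Hochberg adjustment over all tested genes, threshold 0.05. Log2 CPM used a prior count of 2. Contrasts were each pair of diets, the mean of the 3 formulas minus chow, and a joint test. Alternatives were RLE and upper-quartile scaling, other filters, DESeq2 1.42.0, limma 3.58.1 voom with sample quality weights, the replicate number as a block, each library left out, and, added after seeing the data, removal of 4 libraries of low weight, removal of chow replicate 3 with UW replicate 3, and Acot1 and Acot2 summed.

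The members and lists were chosen with earlier results of these data known. The genes named beside the members are the 3 of each list with the smallest joint p, a fixed set (Ppara, Cpt1b, Fgf21, Klf15, Fkbp5, Pdk1, Pdk3, Lpl, Ucp1), and the 6 highest and 3 lowest Spearman rho with Pdk4. Genes that this rule names and whose values are not given are not reported here. Cell type markers of lymphocytes (7 genes, 10.9 to 31.1 CPM), fibroblasts (6 genes, 755 to 1333 CPM) and brown adipocytes (3 of 4 in the table) were looked at as well. Transcript lengths, counted within the deposited gene positions, and shared words, counted over whole transcripts, came from GENCODE vM21.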

Additional observations from a re-analysis of the deposited data

Results flagged for a closer look

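In 3 of 28 groups of 4 hearts (7 genes by 4 diets), 1 heart lay far from the others of its diet, with a gap to its neighbour, as a share of the group's range, past Dixon's 95% critical value. Chance gives about 1 in 20 such groups. Acot1 was at 91.3 CPM in UW replicate 3, and the next UW heart was at 28.5 CPM. Acot2 was at 60.3 CPM in chow replicate 3, and the next chow heart was at 90.9 CPM. Ucp2 was at 79.9 CPM in the same chow heart, where the next was at 58.2 CPM. The cause of these gaps was not tested.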

How the results depend on the processing

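With 4 hearts a diet the tests had wide intervals, and the 4 hearts of low quality weight and the 63005490 counts of NIA replicate 2 limit every comparison. The unsettled order of the formula groups limits those that name a single formula group. No member was called by another scaling, filter, tool, the block or with 1 heart left out. For the formulas over chow, Pdk4, Acot1 and Acot2 kept their direction under every setting: leaving out 1 heart gave 1.10 to 1.73 for Pdk4, 0.57 to 1.08 for Acot1 and 0.46 to 0.72 for Acot2, and without the 4 low-weight hearts Pdk4 was at 0.87. The other members did not. Pdk2 was at -0.06 by limma-voom, -0.17 without the 4 low-weight hearts, -0.04 without chow 3 and UW 3, and -0.02 to 0.35 with 1 heart left out. Angptl4 was at -0.03 with upper-quartile scaling, -0.07 by limma-voom, -0.13 without chow 3 and UW 3, and -0.24 to 0.12 with 1 heart left out. Ucp2 was at 0.07 without the 4 low-weight hearts, 0.01 without chow 3 and UW 3, and -0.17 to 0.04 with 1 heart left out. Ucp3 was at -0.02 by limma-voom, -0.01 without the 4 low-weight hearts, -0.09 without chow 3 and UW 3, and -0.01 to 0.24 with 1 heart left out.

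For NIA over chow without the 4 low-weight hearts, Pdk4 was at -0.26 and Acot2 at -0.07. Without chow 3 and UW 3, UW over NIA was -0.37 for Pdk4 and -0.01 for Pdk2, and mNIA over UW was 0.42 for Pdk4. Pdk4 for mNIA over NIA was -0.01 by RLE and by DESeq2. With 1 heart left out, Pdk4 ran from -0.37 to 1.37 for UW over NIA, -0.37 to 0.64 for mNIA over NIA and -1.11 to 0.42 for mNIA over UW, and Pdk2 from -0.11 to 0.25 for UW over NIA and -0.07 to 0.33 for mNIA over NIA. Over all 49 fold changes of the members, limma-voom turned 11, removal of the 4 low-weight hearts 15, removal of chow 3 with UW 3 turned 19, the scaling, filter, DESeq2 and block settings 0 to 3 each, and leaving out each heart in turn 69 of 784 values.

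Genes called over the whole table moved more. DESeq2 gave 127 for NIA over chow, 375 for UW over NIA, 3 for mNIA over NIA, 174 in the joint test, 1 each for UW over chow and mNIA over UW and 0 for mNIA over chow. Limma-voom gave 4 for the formulas over chow, 31 for NIA over chow, 2 for UW over chow, 954 for UW over NIA, 2001 for mNIA over NIA, 1 for mNIA over UW and 2007 in the joint test. Without the 4 low-weight hearts there were 224 for NIA over chow, 1 for UW over chow, 0 for mNIA over chow, 1627 for UW over NIA (1 member), 3184 for mNIA over NIA (2 members) and 1374 in the joint test (1 member, Pdk2, adjusted p = 0.0316 by edgeR). Without chow 3 and UW 3 there was 1 each for UW over NIA, mNIA over UW and the joint test and 0 for mNIA over chow, as also with upper-quartile scaling. Leaving out 1 heart gave 0 to 116 for NIA over chow, 0 to 217 for UW over NIA and 0 to 110 in the joint test, each highest without NIA replicate 2, and 0 to 1 for mNIA over chow and mNIA over UW. The causes of these moves were not tested.

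Same-numbered hearts were not treated as pairs in the main test. Of 24 pairs of same-numbered hearts 9 had deviations correlated above 0.1 (range -0.58 to 0.61). Hearts of different numbers were not compared in this way, so whether same-numbered hearts share a batch was not tested. With the number as a replicate block, Pdk4 was at 1.21 for the formulas over chow and Angptl4 at -0.09, 0 genes were called for mNIA over chow, and no member was called.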
